A study of Homo sapiens with 35 samples.

Results

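The comparison described here sets DU145 cells carrying a short hairpin RNA against ZMYND8 (shZMYND8) against DU145 cells carrying one against luciferase (shLuciferase), an insect gene that human cells lack. It rests on 4 RNA-seq libraries, 2 per group, chosen by their labelled treatment from the 35 samples of the series. DU145 is a human prostate carcinoma line taken from a metastasis in the brain, grown here in medium with fetal bovine serum. The series also holds 2 RNA-seq libraries of DU145 cells with a hairpin against JARID1D (shJARID1D), whose gene symbol is KDM5D, and 29 chromatin immunoprecipitation and input samples, which were not analysed here. The shJARID1D libraries served to estimate the spread and as a second reference. The hairpin sequences, their number and the time after their introduction are not stated in the labels, and nothing says that both libraries of a group were grown apart. The p-values therefore reflect the spread among these libraries alone, part or all of which may be technical. All genes of the deposited table were described, 28443 of 28503 after those not quantified in some library were set aside, and 15867 of them had enough counts to be tested.

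ZMYND8, also called RACK7, is a chromatin protein. It joins a PHD finger, a bromodomain and a PWWP domain into a module that reads acetylated and methylated histone tails, and it has been found at promoters and enhancers together with demethylases of the KDM5 family and with the NuRD complex. It is mostly described as a restraint on transcription, and the title of the series names metastasis-linked genes as its targets in this setting. Interferon-stimulated genes (123 of 138 tested rose and none fell) and genes of the G2 and M phases (92 of 110 fell and 1 rose) were set apart as 2 lists, and the account below is about the genes outside them. Without shZMYND8 replicate 1, 76 of the first rose and 24 of the second fell.

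The deposited estimated counts of the 4 libraries summed to between 23921578 and 25001300 each, and a count of 0 allows a level of up to 0.109 to 0.126 CPM, the library's counts scaled to a common total (3 fragments, counting error only). The shLuciferase libraries differed more from each other than the shZMYND8 libraries did, with a chi-square statistic per gene of 33.8 against 13.9. Epithelial markers (EPCAM, KRT8, KRT18, KRT19 and CDH1) summed to between 1107 and 1798 CPM per library, here scaled by the library total alone, while all other CPM are also scaled by edgeR's normalization factors. Of the prostate luminal markers, KLK2 was at 0 in all 4 libraries, KLK3 reached 0.0423 CPM and TMPRSS2 0.127 CPM. Endothelial markers, none above 1 CPM, summed to 0.457 to 0.496 CPM in shLuciferase and 1.21 to 1.27 CPM in shZMYND8, and neuronal and glial markers to 60.8 to 68.8 CPM, most of it MBP. Bulk RNA cannot tell fewer cells of a kind from less RNA per cell.

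The targeted gene was reduced but not lost. ZMYND8 stood at 64.7 and 52.7 CPM in shLuciferase and 35.5 and 33.2 CPM in shZMYND8 (log2 fold change -0.77 ± 0.13, edgeR adjusted p = 0.00491). Both shZMYND8 libraries lay below both controls, and the shJARID1D libraries lay at 69.7 and 63.7 CPM, above the lower control and on either side of the higher one. Without shZMYND8 replicate 2 the adjusted p was 0.0581, so this check rests on both libraries, and the range without each library in turn was 0.00105 to 0.0581. KDM5D, which encodes the histone H3 lysine 4 demethylase JARID1D, stood at 58.1 and 61.04 CPM in shLuciferase and 55.5 and 59.9 CPM in shZMYND8 and did not pass the test (log2 fold change -0.05 ± 0.12, edgeR adjusted p = 0.83).

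Of the 15867 genes tested, 2574 (16.2%) differed between shZMYND8 and shLuciferase at an adjusted p under 0.05 by edgeR's quasi-likelihood test. Of these, 1410 (8.89%) were higher in shZMYND8 and 1164 (7.34%) were lower, and the median log2 fold change over all tested genes was -0.01. Larger changes were mostly rises: 595 genes (3.75%) rose and 208 (1.31%) fell at least 2-fold. Outside the interferon and G2/M lists, 1286 genes rose and 1072 fell. Fewer genes passed without shZMYND8 replicate 1 or without replicate 2 than without any one of the other 4. Such a fit leaves 1 library in its group, and the spread is then taken from the other groups. The shLuciferase pair had the highest chi-square statistic per gene, 33.8, against 13.9 for shZMYND8 and 12.1 for shJARID1D. ZMYND8 had a log2 fold change of -0.77 with all libraries, -0.82 without shZMYND8 replicate 1 and -0.73 without replicate 2. How far the spread set the counts was not tested. The genes that passed without each of the 6 libraries in turn numbered 542, of which 365 were higher and 177 lower.

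**Figure D1:**
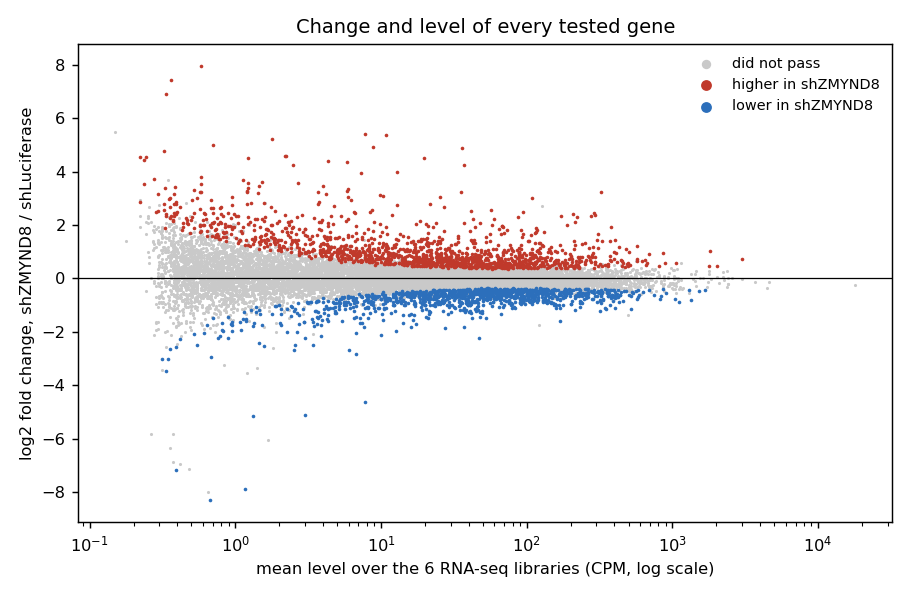
Log2 fold change of shZMYND8 over shLuciferase (vertical axis) against the mean level over 6 libraries in CPM (horizontal axis, log scale) for the 15867 tested genes, 1 point per gene. Of the coloured points, 595 lie at a rise and 208 at a fall of at least 2-fold.

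The split between rises and falls moved with the level of the gene. Among 1824 genes with a mean under 1 CPM, 115 rose and 25 fell, whereas among 2545 genes of at least 100 CPM 225 rose and 301 fell. The median size also moved with the level: genes that rose had a median log2 fold change of 1.46 between 1 and 5 CPM and of 0.69 at 100 CPM or more, where genes that fell had a median of -0.58. Low genes pass the test only with large changes. Of 13408 tested protein-coding genes, 9.58% rose and 8.11% fell, and of 568 tested long noncoding RNA genes, 5.99% rose and 3.35% fell.

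The largest rises outside the interferon list were in genes of very different roles. SLCO2B1, a transporter of organic anions, stood at 6.43 and 6.08 CPM in shLuciferase and 52.8 and 51.4 CPM in shZMYND8 (log2 fold change 3.06 ± 0.13, edgeR adjusted p = 9.8e-06), the smallest adjusted p of the table. SCARA5, a scavenger receptor that takes up ferritin, stood at 3.36 and 2.01 CPM in shLuciferase and 28.2 and 17.4 CPM in shZMYND8 (log2 fold change 3.08 ± 0.30, edgeR adjusted p = 0.000546). F2RL2, a member of the protease-activated receptor family, stood at 5.28 and 6.13 CPM in shLuciferase and 37.96 and 40.9 CPM in shZMYND8 (log2 fold change 2.79 ± 0.14, edgeR adjusted p = 2.97e-05). In all 3, the shZMYND8 libraries lay far above the controls, and the shJARID1D libraries lay between them, at 17.7 and 17.4 CPM for SLCO2B1, 6.38 and 4.72 CPM for SCARA5 and 18.9 and 20.3 CPM for F2RL2.

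GLIPR1, a protein first described in glioma, stood at 3.87 and 3.13 CPM in shLuciferase and 22.8 and 18.2 CPM in shZMYND8 (log2 fold change 2.55 ± 0.23, edgeR adjusted p = 0.00045) and at 1.59 and 2.49 CPM in shJARID1D, below both controls. IGFBP3, which binds insulin-like growth factors, stood at 25.6 and 18.5 CPM in shLuciferase and 117 and 103 CPM in shZMYND8 (log2 fold change 2.31 ± 0.18, edgeR adjusted p = 0.00035), and its shJARID1D libraries, at 143 and 112 CPM, overlapped with shZMYND8. CYP24A1, the enzyme that inactivates vitamin D, stood at 41.8 and 25.02 CPM in shLuciferase and 189.8 and 182 CPM in shZMYND8 (log2 fold change 2.47 ± 0.28, edgeR adjusted p = 0.000755). There was a wide gap between its 2 controls. Neither overlapped with shZMYND8, as was required of every gene among these largest rises.

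The remaining genes among the 12 largest rises were SAMD11, NUPR1 (a stress-induced nuclear protein), BEST1 (a calcium-activated chloride channel), CLDN1 (a tight junction claudin), TRANK1 and MAP2 (a microtubule-associated protein), with log2 fold changes of 2.50 ± 0.20, 2.45 ± 0.23, 2.24 ± 0.23, 2.24 ± 0.15, 2.23 ± 0.26 and 2.17 ± 0.27. TRANK1 spread widely within shZMYND8, with 18.6 and 11.9 CPM in shLuciferase and 89.97 and 53.1 CPM in shZMYND8. In the direct comparison of shZMYND8 with shJARID1D, 10 of the 12 were higher in shZMYND8, and IGFBP3 (log2 difference -0.21 ± 0.17, edgeR adjusted p = 0.432) and TRANK1 (log2 difference 0.76 ± 0.25, edgeR adjusted p = 0.0636) did not pass. Of all tested genes 15.7% differed in this comparison, as did 48.5% of the genes that differed from shLuciferase. The 12 were chosen on the same shZMYND8 libraries, so the 2 comparisons are not independent.

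Among the largest falls outside the G2/M list in genes of at least 5 CPM, FBP1, the gluconeogenic fructose bisphosphatase, was first. CCNA1, the germline A-type cyclin, was next. FBP1 stood at 11.9 and 12.1 CPM in shLuciferase and 1.93 and 1.42 CPM in shZMYND8 (log2 fold change -2.84 ± 0.21, edgeR adjusted p = 0.000315), with shJARID1D between them at 6.64 and 6.56 CPM. CCNA1 stood at 7.58 and 7.41 CPM in shLuciferase and 1.16 and 1.16 CPM in shZMYND8 (log2 fold change -2.69 ± 0.23, edgeR adjusted p = 0.000425), while shJARID1D lay at 10.6 and 8.32 CPM. MMP1, the interstitial collagenase, stood at 5.83 and 10.5 CPM in shLuciferase and 1.46 and 2.53 CPM in shZMYND8 (log2 fold change -2.03 ± 0.33, edgeR adjusted p = 0.00374), and its shJARID1D libraries, at 9.51 and 10.8 CPM, lay within or just above the range of the controls.

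RNF128, a membrane-bound ubiquitin ligase, stood at 11.1 and 8.65 CPM in shLuciferase and 3.04 and 2.53 CPM in shZMYND8 (log2 fold change -1.82 ± 0.21, edgeR adjusted p = 0.000766), and EVA1A, a protein of the endoplasmic reticulum and lysosome linked to autophagy, at 19.8 and 26.8 CPM in shLuciferase and 7.03 and 7.43 CPM in shZMYND8 (log2 fold change -1.69 ± 0.19, edgeR adjusted p = 0.000817). EPCAM, the epithelial adhesion molecule, stood at 21.03 and 19.8 CPM in shLuciferase and 6.9 and 5.84 CPM in shZMYND8 (log2 fold change -1.68 ± 0.17, edgeR adjusted p = 0.000546). The remaining 6 were HIST1H3G (-2.22 ± 0.21), a histone gene whose near copies make its counts uncertain, TNFRSF11A, the receptor RANK (-2.13 ± 0.18), the synaptic vesicle protein gene SV2A (-1.97 ± 0.21), the tight junction gene CLDN4 (-1.86 ± 0.20), C1orf116 (-1.82 ± 0.17) and C9orf84 (-1.81 ± 0.28), given as log2 fold changes. All 12 were also lower than in shJARID1D, with edgeR adjusted p of 0.000269 (CCNA1) to 0.00759 (C9orf84). Of all tested genes 15.7% differed in that comparison in either direction, and it uses the same shZMYND8 libraries by which the 12 were chosen. Each of the 24 genes kept its direction and its call under all 18 alternative fits, those without any single library included.

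**Figure D2:**
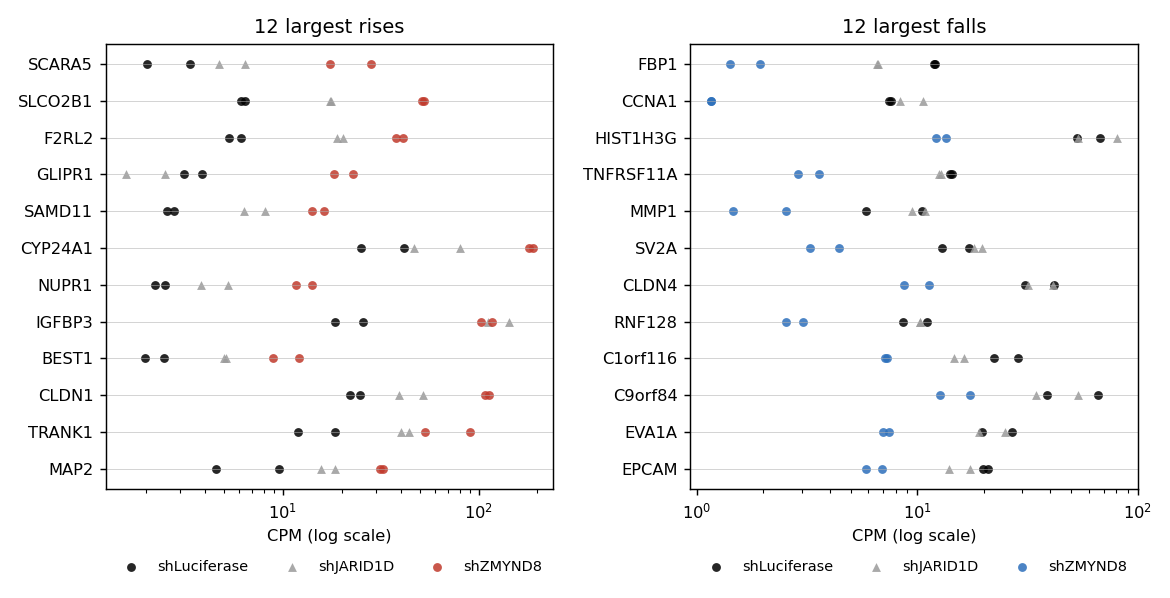
Levels in CPM (horizontal axis, log scale) of the 12 largest rises (left) and the 12 largest falls (right) among genes of at least 5 CPM. Each library is 1 point: black shLuciferase, grey triangles shJARID1D, red or blue shZMYND8. In every row the 2 shZMYND8 points stand apart from the 2 shLuciferase points, which the choice of these genes required. The shJARID1D points, which played no part in that choice beyond the mean level and the fit, vary from row to row.

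Genes of chromosome 18 fell together in shZMYND8. Of its 196 tested genes, 68 (34.7%) were lower and 7 (3.57%) were higher, while among the other 22 chromosomes the share of lower genes ran from 4% (chromosome 14) to 11.6% (chromosome 10). Over the 163 genes with at least 5 CPM the median log2 fold change was -0.37 and 139 values (85.3%) were negative, whereas the medians of the other chromosomes lay between -0.09 and 0.08. Both shZMYND8 libraries were below both controls for 125 of the 196 genes (63.8%), against 27.8% of all tested genes.

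The fall on chromosome 18 did not rest on 1 library. Its median difference was -0.40 and -0.31 for shZMYND8 replicate 1 against the 2 controls and -0.42 and -0.30 for replicate 2, and the corresponding medians of the other chromosomes all lay between -0.17 and 0.14. The 2 controls differed by 0.11 on chromosome 18, and by as much as -0.23 on chromosome 19. Against shJARID1D the median log2 difference was -0.38, and shJARID1D against shLuciferase had a median of 0.00 there. Without any single library the median ran from -0.31 to -0.43. The count of lower genes fell to 15 (7.65% of chromosome 18, against 1.33% elsewhere) without shZMYND8 replicate 1 and to 28 (14.3% against 2.12%) without replicate 2, and was 51 to 83 without each of the others. Copy number was not analysed here.

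**Figure D3:**
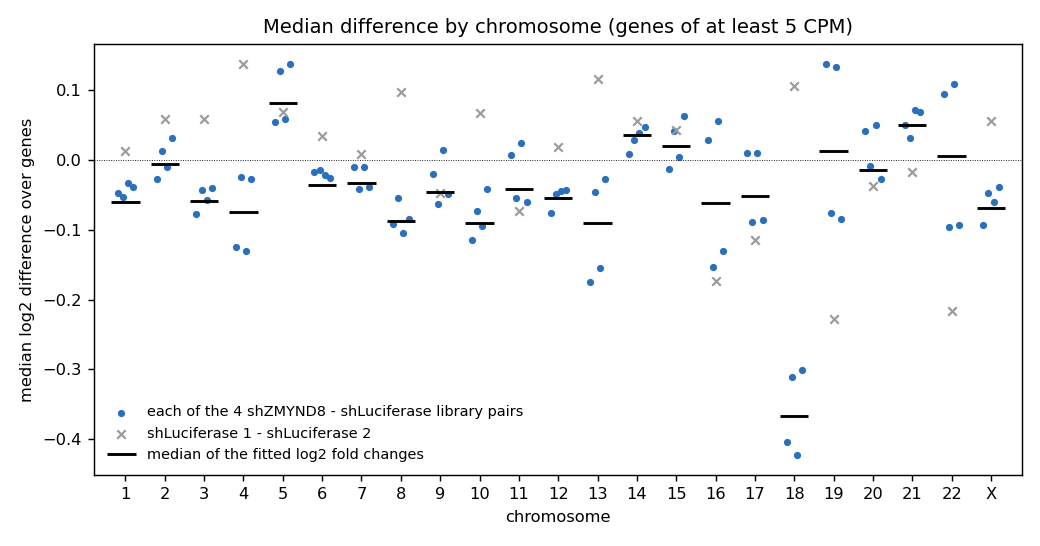
Median log2 difference over genes of at least 5 CPM (vertical axis) for each chromosome (horizontal axis): blue points are the 4 pairs of a shZMYND8 and a shLuciferase library, grey crosses the difference between the 2 shLuciferase libraries, black bars the median fitted log2 fold change. All 4 pairs on chromosome 18 lie at -0.30 or below, under every pair of the other chromosomes.

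Along chromosome 18 the fall was uneven. When its 163 genes were split by their order into 4 runs of 40 or 41 genes, the median log2 fold changes were -0.24, -0.21, -0.52 and -0.55, and 39 of 41 and 38 of 40 values were negative in the last 2 runs. The lower genes were moderate in size, with a median of -0.69 against -0.66 for lower genes elsewhere, and 8 of them fell at least 2-fold. TXNL4A, a component of the spliceosome, stood at 48.9 and 55.1 CPM in shLuciferase and 21.7 and 21.9 CPM in shZMYND8 (log2 fold change -1.25 ± 0.12, edgeR adjusted p = 0.000546). Its neighbour HSBP1L1 stood at 14.6 and 12.6 CPM in shLuciferase and 6.56 and 6.23 CPM in shZMYND8 (log2 fold change -1.09 ± 0.16, edgeR adjusted p = 0.00222), and MYO5B, the motor myosin Vb that carries recycling endosomes, at 24.01 and 20.01 CPM in shLuciferase and 10.7 and 11.4 CPM in shZMYND8 (log2 fold change -0.997 ± 0.16, edgeR adjusted p = 0.00363). For all 3 both shZMYND8 libraries were below both controls, and the shJARID1D libraries lay nearer to the controls than to shZMYND8, at 44.3 and 48.7 CPM, 12.98 and 12.3 CPM and 30.2 and 24.01 CPM.

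Other genes of this chromosome that fell, chosen like TXNL4A and HSBP1L1 after their values were seen, were SMAD4, the shared mediator of TGF-beta signalling (log2 fold change -0.50 ± 0.11), the methyl-CpG binding genes MBD1 (-0.77 ± 0.14) and MBD2 (-0.67 ± 0.12), CXXC1, which targets histone H3 lysine 4 methylation to CpG islands (-0.79 ± 0.16), and ATP5A1, a subunit of the ATP synthase (-0.71 ± 0.12), with edgeR adjusted p of 0.0156, 0.0067, 0.00659, 0.0104 and 0.00468. These 5, unlike TXNL4A, HSBP1L1 and MYO5B, lost the call when some library was left out, with adjusted p of up to 0.14, 0.0779, 0.0877, 0.103 and 0.0619. TNFRSF11A, one of the 12 largest falls, also lies on chromosome 18. With chromosome 18 left out, 1403 genes rose and 1096 (6.99%) fell among 15671, so most falls lay on other chromosomes.

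**Figure D4:**
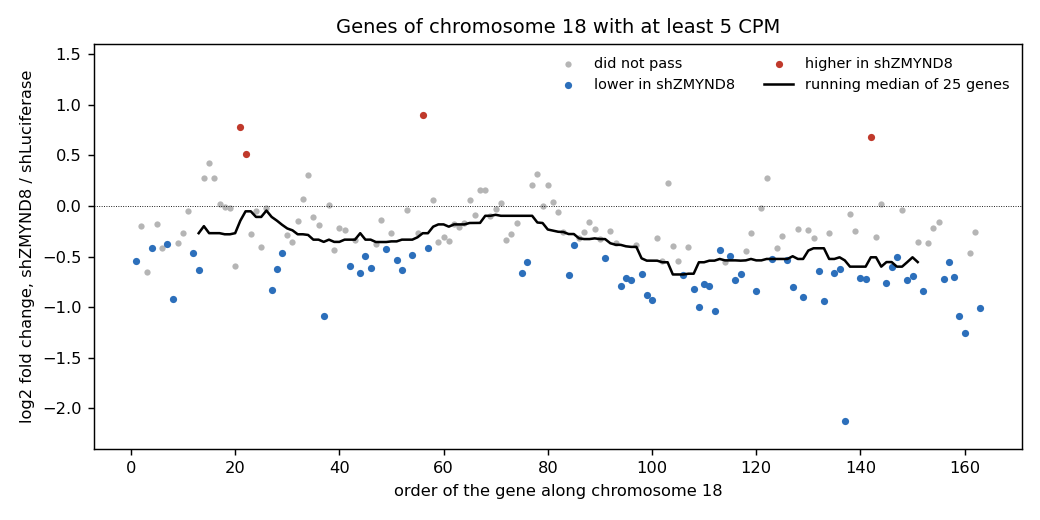
Log2 fold change of shZMYND8 over shLuciferase (vertical axis) of 163 genes of chromosome 18 in their order along it (horizontal axis, no distance scale), with a running median of 25 genes. The running median stays under 0 and is lowest in the last 2 of the 4 runs, whose medians are -0.52 and -0.55.

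Shorter stretches of other chromosomes were examined in the same way. In 10604 windows of 25 neighbouring genes, 176 had a median log2 fold change under -0.3, of which 86 lay on chromosome 18 and 43 on chromosome 10. After 2 windows of chromosome 18 (medians -0.68 and -0.60), the lowest separate windows were 2 in the histone cluster of chromosome 6. These ran from HCG11 to HIST1H2BO (-0.58) and from TDP2 to HIST1H4H (-0.54), where histone genes are near copies. In them the 2 controls differed by -0.39 and -0.26, and the library pairs ran from -0.33 to -0.86 and from -0.31 to -0.70. The lowest window of chromosome 10, from ACADSB to INPP5A near its end, had a median of -0.49 with 12 lower and 2 higher genes. Its 4 library pairs ran from -0.42 to -0.48. Against shJARID1D its median was -0.21, and shJARID1D against shLuciferase had a median of -0.18 there. METTL10, a lysine methyltransferase, stood at 35.8 and 36.03 CPM in shLuciferase and 18.9 and 19.9 CPM in shZMYND8 (log2 fold change -0.89 ± 0.12, edgeR adjusted p = 0.00175), and OAT, ornithine aminotransferase, at 141 and 129 CPM in shLuciferase and 86.1 and 80.6 CPM in shZMYND8 (log2 fold change -0.69 ± 0.11, edgeR adjusted p = 0.00385), both of chromosome 10 and chosen after their values were seen. At the other end of the scale, 91 windows had a median above 0.3. Of the 8 separate windows with the highest medians, 4 lay on chromosome 19, and the one from ZNF471 to ZNF587B, in a zinc finger cluster, had a median of 0.39 and library pairs from 0.35 to 0.46.

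Gene groups were compared with the share of all tested genes that rose (8.89%) or fell (7.34%). Each group is a list of members whose count and median describe these libraries, and no group was tested as a set. Most counts below were smallest without shZMYND8 replicate 1 or replicate 2, as the count over all genes was, and each list's counts without 1 library are given beside it. Genes named as examples kept their call without any single library unless stated, because such genes were preferred. Most changed genes did not keep theirs, so the examples are firmer than the lists they come from.

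Carriers of nutrients and metabolites rose in number. Of 79 tested amino acid, sugar and metabolite transporters, 22 (27.8%) rose and 6 (7.59%) fell, with a median log2 fold change of 0.29. Without 1 library 10 to 24 rose and 1 to 8 fell, the fewest without shZMYND8 replicate 1. SLC26A2, a sulfate transporter that feeds proteoglycan sulfation, stood at 93.2 and 90.4 CPM in shLuciferase and 323 and 407 CPM in shZMYND8 (log2 fold change 1.99 ± 0.14, edgeR adjusted p = 0.000262). SLC22A5, the carnitine transporter, stood at 14.99 and 17.6 CPM in shLuciferase and 39.3 and 40.1 CPM in shZMYND8 (log2 fold change 1.28 ± 0.14, edgeR adjusted p = 0.0007). SLC36A1, which exports amino acids from lysosomes, stood at 9.32 and 10.1 CPM in shLuciferase and 24.3 and 26.7 CPM in shZMYND8 (log2 fold change 1.39 ± 0.14, edgeR adjusted p = 0.000534). In each, both shZMYND8 libraries lay at more than 2 times the higher control, while for SLC4A4, a sodium bicarbonate cotransporter, they lay below it, with 79.5 and 65.1 CPM in shLuciferase and 29.4 and 35.2 CPM in shZMYND8 (log2 fold change -1.16 ± 0.14, edgeR adjusted p = 0.00109). The shJARID1D libraries overlapped with shZMYND8 for SLC4A4, at 35.1 and 33.3 CPM, and lay just above the controls for SLC26A2, at 105 and 115 CPM.

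Of 40 lysosome and autophagy genes, 13 (32.5%) rose and none fell, with a median of 0.26. Without 1 library 2 to 14 rose and 0 to 2 fell, the fewest rises without shZMYND8 replicate 1. SQSTM1, the autophagy receptor p62, stood at 1071 and 1263 CPM in shLuciferase and 2378 and 2369 CPM in shZMYND8 (log2 fold change 1.02 ± 0.12, edgeR adjusted p = 0.00104). ULK1, the kinase that starts autophagy, stood at 10.4 and 11.6 CPM in shLuciferase and 24.8 and 23.1 CPM in shZMYND8 (log2 fold change 1.12 ± 0.14, edgeR adjusted p = 0.000998). Of 41 genes of the NRF2 and glutathione list, which counter oxidants, 9 (22%) rose and none fell, with a median of 0.19. Without 1 library 4 to 16 rose and 0 to 1 fell, the fewest without shZMYND8 replicate 1 and the most without shLuciferase replicate 1. SOD2, the mitochondrial superoxide dismutase, stood at 195 and 147 CPM in shLuciferase and 530.2 and 403 CPM in shZMYND8 (log2 fold change 1.45 ± 0.18, edgeR adjusted p = 0.00104). PGD, of the pentose phosphate pathway, stood at 278 and 245 CPM in shLuciferase and 545 and 502 CPM in shZMYND8 (log2 fold change 0.998 ± 0.12, edgeR adjusted p = 0.00105).

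Of 30 hypoxia targets, 10 (33.3%) rose and 2 (6.67%) fell. Without 1 library 6 to 8 rose and 0 to 4 fell, the fewest without either shZMYND8 library. EPAS1, a hypoxia-inducible factor, stood at 55.3 and 44.5 CPM in shLuciferase and 146 and 145 CPM in shZMYND8 (log2 fold change 1.54 ± 0.14, edgeR adjusted p = 0.00045), and STC2, the secreted hormone stanniocalcin, at 141 and 158 CPM in shLuciferase and 304 and 345 CPM in shZMYND8 (log2 fold change 1.12 ± 0.12, edgeR adjusted p = 0.000729). VEGFA, the angiogenic growth factor, stood at 346 and 305 CPM in shLuciferase and 341 and 308 CPM in shZMYND8 and did not pass (log2 fold change -0.004 ± 0.14, edgeR adjusted p = 0.992). Lipid genes leaned the other way: of 73, 5 (6.85%) rose and 12 (16.4%) fell, with a median of -0.11. Without 1 library 2 to 8 rose and 1 to 14 fell, the fewest without shZMYND8 replicate 1. PLIN3, which coats lipid droplets, stood at 253 and 334 CPM in shLuciferase and 130.2 and 132 CPM in shZMYND8 (log2 fold change -1.16 ± 0.15, edgeR adjusted p = 0.00111), while PTGES, a prostaglandin E synthase, stood at 85.03 and 74.8 CPM in shLuciferase and 169 and 136 CPM in shZMYND8 (log2 fold change 0.93 ± 0.14, edgeR adjusted p = 0.00237).

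Few genes of the core machinery of the cell passed the test. Of 50 cytosolic ribosomal protein genes 1 rose and 2 fell, of 31 constitutive proteasome genes 1 fell, and of 46 nuclear-encoded respiratory chain genes 2 fell, one of them ATP5A1 of chromosome 18. The medians of these 3 lists were 0.06, -0.01 and -0.05. Without 1 library 0 to 4 rose and 0 to 3 fell in the first, 0 rose and 0 to 2 fell in the second and 0 to 2 rose and 0 to 5 fell in the third, and no call was left in any of them without shZMYND8 replicate 1. Of 27 genes of the citrate cycle and pyruvate dehydrogenase, 1 rose and 4 fell, and no fall was left without either shZMYND8 or either shJARID1D library. Of 77 DNA repair genes 1 rose and 8 (10.4%) fell, with a median of -0.10. Without 1 library 0 to 2 rose and 0 to 12 fell, the fewest without shZMYND8 replicate 1.

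Secreted signals and their receptors rose more often than all genes. Of 49 cytokines, chemokines and receptors outside the interferon list, 16 (32.7%) rose and 2 (4.08%) fell, with a median of 0.40. Without 1 library 4 to 19 rose and 1 to 3 fell, the fewest without shZMYND8 replicate 1. IL6, the inflammatory cytokine, stood at 20.6 and 12.04 CPM in shLuciferase and 80.7 and 58.3 CPM in shZMYND8 (log2 fold change 2.09 ± 0.24, edgeR adjusted p = 0.000806), and its receptor subunit gene IL6R at 65.4 and 62.03 CPM in shLuciferase and 128 and 124 CPM in shZMYND8 (log2 fold change 0.98 ± 0.11, edgeR adjusted p = 0.000755). IL1RAP, the accessory chain of the interleukin-1 receptor, stood at 38.9 and 32.1 CPM in shLuciferase and 116 and 133 CPM in shZMYND8 (log2 fold change 1.81 ± 0.14, edgeR adjusted p = 0.000349). All 3 were above both controls in both shZMYND8 libraries and above shJARID1D. Leukocyte markers summed to 1.53 to 1.79 CPM in shLuciferase and 2.46 to 3.19 CPM in shZMYND8, with PTPRC at 0.0431 CPM or less and CD3E at 0. Most of these sums was CD14, at 1.29 and 0.993 CPM in shLuciferase and 1.72 and 1.31 CPM in shZMYND8, and ITGAM, at 0.499 and 0.455 CPM and 1.38 and 1.1 CPM. The part of such cells in these counts was not tested.

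Of 48 growth factor ligands, 8 (16.7%) rose and 5 (10.4%) fell. Without 1 library 4 to 9 rose and 0 to 5 fell, the fewest without shZMYND8 replicate 1. BMP7, a bone morphogenetic protein, stood at 1.36 and 1.2 CPM in shLuciferase and 8.31 and 9.53 CPM in shZMYND8 (log2 fold change 2.79 ± 0.25, edgeR adjusted p = 0.000436), and remained low in shJARID1D at 0.943 and 0.729 CPM. CSF1, the macrophage growth factor, stood at 167 and 155 CPM in shLuciferase and 314 and 292 CPM in shZMYND8 (log2 fold change 0.91 ± 0.11, edgeR adjusted p = 0.00112). Of 24 receptor tyrosine kinases 6 (25%) rose and 2 (8.33%) fell. Without 1 library 1 to 7 rose and 0 to 2 fell, the fewest rises without shZMYND8 replicate 2. IGF1R, the insulin-like growth factor receptor, stood at 84.1 and 75.9 CPM in shLuciferase and 188 and 211 CPM in shZMYND8 (log2 fold change 1.32 ± 0.13, edgeR adjusted p = 0.000534) and 89.6 and 77.7 CPM in shJARID1D.

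Of 46 axon guidance ligands and receptors, which also steer tumour cell movement, 14 (30.4%) rose and 2 (4.35%) fell, with a median of 0.33. Without 1 library 3 to 13 rose and 1 to 5 fell, the fewest without shZMYND8 replicate 1. Plexins, the receptors for semaphorins, were among the rises: PLXNA2 stood at 2.001 and 2.74 CPM in shLuciferase and 8.44 and 7.56 CPM in shZMYND8 (log2 fold change 1.75 ± 0.23, edgeR adjusted p = 0.00142) and PLXND1 at 9.28 and 10.4 CPM in shLuciferase and 19.6 and 22.2 CPM in shZMYND8 (log2 fold change 1.09 ± 0.15, edgeR adjusted p = 0.00153). The semaphorin gene SEMA6B fell, with 16.3 and 19.1 CPM in shLuciferase and 10.2 and 7.3 CPM in shZMYND8 (log2 fold change -1.02 ± 0.18, edgeR adjusted p = 0.00491). Wnt pathway genes moved in both directions: of 40 8 (20%) rose and 5 (12.5%) fell. Without 1 library 2 to 9 rose and 1 to 6 fell, the fewest without shZMYND8 replicate 1. The Frizzled receptor gene FZD4 stood at 8.3 and 8.35 CPM in shLuciferase and 38.8 and 28.9 CPM in shZMYND8 (log2 fold change 2.02 ± 0.17, edgeR adjusted p = 0.000425) and its coreceptor gene LRP5 at 47.9 and 58.7 CPM in shLuciferase and 113 and 111 CPM in shZMYND8 (log2 fold change 1.07 ± 0.13, edgeR adjusted p = 0.000918), whereas RYK, a Wnt receptor of another family, stood at 88.1 and 82.8 CPM in shLuciferase and 42.7 and 38.9 CPM in shZMYND8 (log2 fold change -1.07 ± 0.12, edgeR adjusted p = 0.0007).

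G protein-coupled receptors and their regulators, with 10 (12.3%) higher and 11 (13.6%) lower of 81, were called about as often in each direction. Without 1 library 6 to 13 rose and 3 to 12 fell, the fewest without shZMYND8 replicate 1. ADORA1, an adenosine receptor, stood at 21.9 and 28.8 CPM in shLuciferase and 8.91 and 9.32 CPM in shZMYND8 (log2 fold change -1.48 ± 0.19, edgeR adjusted p = 0.00116), and BDKRB2, a bradykinin receptor, at 4.43 and 4.07 CPM in shLuciferase and 12.9 and 10.05 CPM in shZMYND8 (log2 fold change 1.43 ± 0.22, edgeR adjusted p = 0.00267). Of 29 Notch pathway genes 4 (13.8%) rose and none fell, with a median of 0.48. Without 1 library 1 to 7 rose and 0 to 1 fell, the fewest without shZMYND8 replicate 1 and the most without shLuciferase replicate 1. NOTCH3, a Notch receptor, stood at 15.8 and 13.9 CPM in shLuciferase and 32.9 and 29.6 CPM in shZMYND8 (log2 fold change 1.07 ± 0.17, edgeR adjusted p = 0.00348).

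Of 48 proteoglycans and matrix glycoproteins, 14 (29.2%) rose and 1 (2.08%) fell, with a median of 0.40. Without 1 library 4 to 15 rose and 0 to 2 fell, with 4 and 5 rises without shZMYND8 replicate 1 and replicate 2 and 8 without either shJARID1D library. HSPG2, the basement membrane proteoglycan perlecan, stood at 84.1 and 91.1 CPM in shLuciferase and 167 and 172 CPM in shZMYND8 (log2 fold change 0.95 ± 0.11, edgeR adjusted p = 0.000899). LTBP2, which binds fibrillin microfibrils, stood at 45.5 and 46.2 CPM in shLuciferase and 96.8 and 97.98 CPM in shZMYND8 (log2 fold change 1.09 ± 0.11, edgeR adjusted p = 0.000546). The 4 libraries fell into 2 tight groups for both genes, and shJARID1D lay slightly below the controls, at 68.9 and 71.5 CPM and 39.8 and 40.7 CPM. Fibroblast markers summed to 1.24 to 2.2 CPM in shLuciferase and 5.63 to 5.82 CPM in shZMYND8, most of it COL1A1, while DCN was at 0 and LUM at 0.0414 CPM or less in all 4 libraries. Their part in these counts was not tested.

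Of 44 matrix proteases and their inhibitors, 11 (25%) rose and 3 (6.82%) fell. Without 1 library 4 to 12 rose and 1 to 3 fell, the fewest rises without shZMYND8 replicate 2 and the fewest falls without replicate 1. ADAM12, a membrane metalloprotease, stood at 4.9 and 3.81 CPM in shLuciferase and 11.1 and 14.4 CPM in shZMYND8 (log2 fold change 1.55 ± 0.22, edgeR adjusted p = 0.00222), and TIMP2, a metalloprotease inhibitor, at 119 and 103 CPM in shLuciferase and 191 and 193 CPM in shZMYND8 (log2 fold change 0.79 ± 0.12, edgeR adjusted p = 0.0027), in contrast to the fall of MMP1. Of 50 glycan and mucin genes, 12 (24%) rose and 5 (10%) fell. Without 1 library 4 to 13 rose and 1 to 6 fell, the fewest without shZMYND8 replicate 2. CHST11, which sulfates chondroitin, stood at 43.9 and 42.8 CPM in shLuciferase and 82.4 and 79.5 CPM in shZMYND8 (log2 fold change 0.90 ± 0.11, edgeR adjusted p = 0.00103), and GCNT3, which branches mucin glycans, at 54.4 and 49.3 CPM in shLuciferase and 111 and 106 CPM in shZMYND8 (log2 fold change 1.06 ± 0.12, edgeR adjusted p = 0.000729). GALNT3, which starts mucin glycosylation, fell, with 4.34 and 4.03 CPM in shLuciferase and 1.11 and 0.687 CPM in shZMYND8 (log2 fold change -2.21 ± 0.34, edgeR adjusted p = 0.00298).

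Epithelial junction genes had the highest share of falls among the 39 lists. Of 56 genes of epithelial splicing, tight junctions and polarity, 22 (39.3%) fell and 6 (10.7%) rose, with a median of -0.33. Without 1 library 2 to 6 rose and 8 to 24 fell, the fewest without shZMYND8 replicate 1. PPL, the cornified envelope protein periplakin, stood at 41.6 and 36.5 CPM in shLuciferase and 16.2 and 16.9 CPM in shZMYND8 (log2 fold change -1.24 ± 0.13, edgeR adjusted p = 0.000562), and DSP, the desmosome linker desmoplakin, at 87.7 and 70.98 CPM in shLuciferase and 32.1 and 30.8 CPM in shZMYND8 (log2 fold change -1.33 ± 0.14, edgeR adjusted p = 0.000562). The intermediate filament gene KRT19 stood at 385 and 537 CPM in shLuciferase and 199 and 214 CPM in shZMYND8 (log2 fold change -1.16 ± 0.16, edgeR adjusted p = 0.00184). Not every epithelial gene followed. CDH1, E-cadherin itself, stood at 48.9 and 29 CPM in shLuciferase and 83.8 and 73.6 CPM in shZMYND8 (log2 fold change 1.01 ± 0.22, edgeR adjusted p = 0.013), although its adjusted p was 0.103 and 0.0539 without shZMYND8 replicate 1 and replicate 2, and CLDN1 was among the largest rises. The giant protocadherin FAT4 stood at 20.7 and 21.5 CPM in shLuciferase and 59.9 and 84.2 CPM in shZMYND8 (log2 fold change 1.77 ± 0.17, edgeR adjusted p = 0.000546).

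The metastasis genes recalled for this study were mixed. The list was recalled from the study of these same samples, so its direction is not independent evidence, and of its 5 tested members 3 rose and 1 fell. Without shZMYND8 replicate 2 none rose and 1 fell, and without each of the other libraries 1 to 3 rose and 1 fell. EGFR stood at 161 and 160.1 CPM in shLuciferase and 225 and 270.2 CPM in shZMYND8 (log2 fold change 0.63 ± 0.12, edgeR adjusted p = 0.009), SNAI2, a transcription factor of the epithelial to mesenchymal transition, at 2.81 and 2.27 CPM in shLuciferase and 5.27 and 4.81 CPM in shZMYND8 (log2 fold change 0.99 ± 0.27, edgeR adjusted p = 0.0329), and the hyaluronan receptor gene CD44 at 176 and 165 CPM in shLuciferase and 222 and 220.3 CPM in shZMYND8 (log2 fold change 0.37 ± 0.11, edgeR adjusted p = 0.049). MMP1 was the fall, and VEGFA did not pass. None of the 3 rises was firm: without each library in turn the adjusted p ran from 0.0125 to 0.101 for EGFR, from 0.0287 to 0.182 for SNAI2 and from 0.0392 to 0.238 for CD44.

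Nuclear receptors rose more often than all genes. Of 47 nuclear receptors and retinoid genes, 10 (21.3%) rose and none fell, with a median of 0.21. Without 1 library 5 to 12 rose and 0 to 1 fell, the fewest without shZMYND8 replicate 1. The immediate early orphan receptor gene NR4A2 stood at 2.94 and 1.97 CPM in shLuciferase and 11.4 and 10.4 CPM in shZMYND8 (log2 fold change 2.15 ± 0.24, edgeR adjusted p = 0.000755), its relative NR4A3 at 3.45 and 3.26 CPM in shLuciferase and 10.3 and 9.23 CPM in shZMYND8 (log2 fold change 1.54 ± 0.19, edgeR adjusted p = 0.00108) and NR0B1, a corepressor of steroidogenic genes, at 1.19 and 1.07 CPM in shLuciferase and 6.08 and 4.89 CPM in shZMYND8 (log2 fold change 2.27 ± 0.26, edgeR adjusted p = 0.000779). For all 3 the shJARID1D libraries lay between shLuciferase and shZMYND8. Of 85 SOX, FOX, GATA, ETS and homeobox factors, 11 (12.9%) rose and 3 (3.53%) fell. Without 1 library 0 to 10 rose and 2 to 8 fell, the fewest rises without shZMYND8 replicate 1, and 8 falls without shLuciferase replicate 2. The falls included the homeobox genes PITX1, with 49.2 and 58.1 CPM in shLuciferase and 29.4 and 24.6 CPM in shZMYND8 (log2 fold change -0.99 ± 0.14, edgeR adjusted p = 0.00194), and NKX2-1, with 106 and 94.5 CPM in shLuciferase and 55.3 and 49.3 CPM in shZMYND8 (log2 fold change -0.94 ± 0.14, edgeR adjusted p = 0.00221).

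Chromatin regulators lay near the background. Of 90 histone and DNA modifying enzymes 10 (11.1%) rose and 5 (5.56%) fell. Without 1 library 1 to 13 rose and 0 to 8 fell, the fewest rises without shZMYND8 replicate 2, and 6 rises without shJARID1D replicate 2. Neither example kept its call without every library. KMT2D, a histone H3 lysine 4 methyltransferase, stood at 36.8 and 36.03 CPM in shLuciferase and 54.2 and 59.04 CPM in shZMYND8 (log2 fold change 0.64 ± 0.12, edgeR adjusted p = 0.00612, and 0.0696 without shZMYND8 replicate 2), and HDAC5, a histone deacetylase, at 23.8 and 22.7 CPM in shLuciferase and 13.7 and 15.03 CPM in shZMYND8 (log2 fold change -0.70 ± 0.13, edgeR adjusted p = 0.00665, and 0.0873 without shZMYND8 replicate 1). Of 77 KRAB zinc finger genes 8 (10.4%) rose and 1 (1.3%) fell, with none left without either shZMYND8 library. Of 23 imprinted genes 3 rose and 4 fell, and 2 rose and 1 fell without either shZMYND8 library. TFPI2, a protease inhibitor, stood at 9.84 and 8.48 CPM in shLuciferase and 37.5 and 32.5 CPM in shZMYND8 (log2 fold change 1.94 ± 0.15, edgeR adjusted p = 0.000349), and PEG10, a retrotransposon-derived gene, at 240.0 and 218 CPM in shLuciferase and 125 and 139 CPM in shZMYND8 (log2 fold change -0.80 ± 0.12, edgeR adjusted p = 0.00252). Both lie on chromosome 7.

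Genes of apoptosis and the BCL2 family moved in both directions, with 8 (21.6%) higher and 6 (16.2%) lower of 37. Without 1 library 3 to 9 rose and 1 to 5 fell, the fewest without shZMYND8 replicate 1. BIRC3, an inhibitor of apoptosis that also acts in NF-kappa B signalling, stood at 374 and 292 CPM in shLuciferase and 745 and 750.1 CPM in shZMYND8 (log2 fold change 1.17 ± 0.14, edgeR adjusted p = 0.000909), and CASP8, the initiator caspase of death receptors, at 75.02 and 59.4 CPM in shLuciferase and 137 and 122 CPM in shZMYND8 (log2 fold change 0.95 ± 0.14, edgeR adjusted p = 0.00222). CYCS, cytochrome c, stood at 186 and 169 CPM in shLuciferase and 110.5 and 94.2 CPM in shZMYND8 (log2 fold change -0.80 ± 0.13, edgeR adjusted p = 0.00316). Of 62 ion channel genes 9 (14.5%) rose and 2 (3.23%) fell, and without 1 library 2 to 9 rose and 0 to 4 fell, the fewest rises without shZMYND8 replicate 2. Of 62 adhesion proteins of the immunoglobulin and CD families 9 rose and 9 fell, and without 1 library 3 to 12 rose and 2 to 12 fell, the fewest rises without shZMYND8 replicate 1.

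Small lists were called at shares on both sides of the 16.2% of all genes. The list called keratin and vimentin genes also holds other intermediate filament genes, and NEFL, NES and LMNB2 were among its calls. The list called cadherins includes protocadherins, and its 2 rises were CDH1 and FAT4. Protocadherin genes of chromosome 5 that rose side by side, such as PCDHGB5, PCDHGA9, PCDHGB6 and PCDHGA10, are not in its count of rises. Of 19 keratin and vimentin genes 7 (36.8%) were called, 3 higher and 4 lower, and without 1 library 0 to 3 rose and 2 to 6 fell. Of 13 S100 genes 4 (30.8%) were called, 1 higher and 3 lower, and without 1 library 0 to 3 rose and 2 to 3 fell. Of 32 glycolysis and gluconeogenesis genes 9 (28.1%) were called, 5 higher and 4 lower, and without 1 library 0 to 6 rose and 1 to 8 fell, with no rise and 1 fall without shZMYND8 replicate 1. Of 11 cancer-testis genes 2 (18.2%) were called, 1 in each direction, and none without either shZMYND8 library. Of 26 chaperones 3 rose and 1 fell (15.4% called), and none without either shZMYND8 library. Of 14 cadherins 2 (14.3%) rose, and 1 without either shZMYND8 library. Of 49 genes of serine, one-carbon and nucleotide synthesis 1 rose and 3 fell (8.16% called), and without 1 library 0 to 2 rose and 0 to 9 fell, with no fall without either shZMYND8 library. Of 39 synaptic and neuroendocrine genes 2 (5.13%) fell, and without 1 library 0 rose and 1 to 3 fell.

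**Figure D5:**
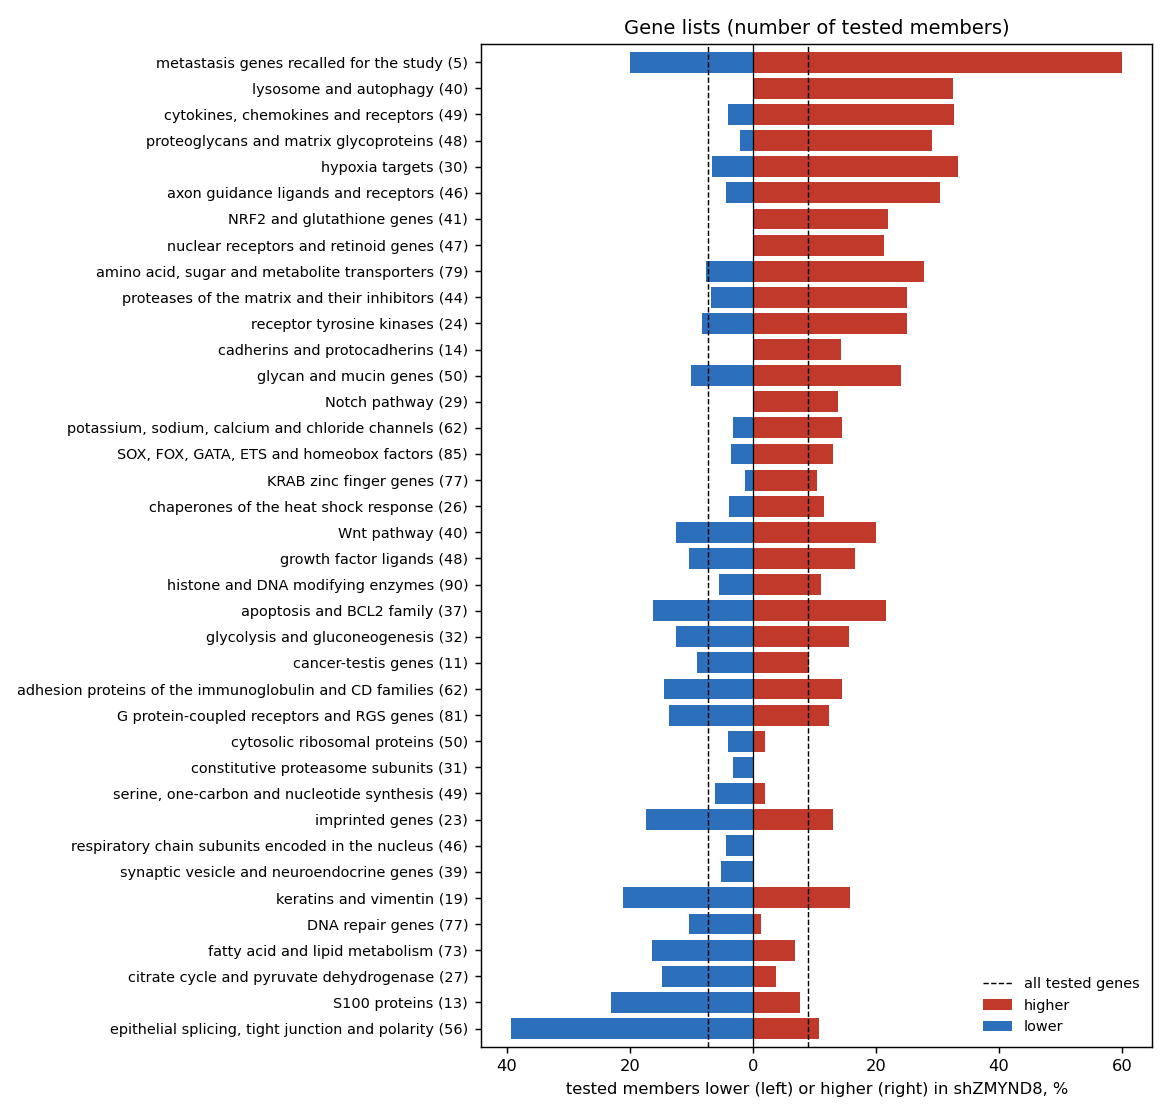
Share of the tested members of each gene list plotted that were higher (red, right) or lower (blue, left) in shZMYND8, in percent (horizontal axis), with the number of tested members in brackets. Dashed lines give the shares over all tested genes, 8.89% and 7.34%, and the epithelial list reaches 39.3% on the side of falls.

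Pairs of neighbouring genes were then counted. Among 14420 pairs of adjacent tested genes, both rose in 213 (1.48%), both fell in 149 (1.03%) and the 2 moved in opposite directions in 162 (1.12%), and 27 of the pairs that fell lay on chromosome 18. Without shZMYND8 replicate 1 these counts were 34, 9 and 8, and without replicate 2 they were 86, 23 and 19. Runs of at least 3 rising neighbours numbered 36, several of them interferon clusters such as GBP and OAS, and runs of at least 3 falling neighbours numbered 22, of which 6 lay on chromosome 18 and others in the histone cluster of chromosome 6. Outside those, the cytochrome genes CYP4F3, CYP4F12 and CYP4F11 on chromosome 19, which hydroxylate fatty acids and leukotrienes, rose side by side. CYP4F11 stood at 32.9 and 24.1 CPM in shLuciferase and 85 and 81.5 CPM in shZMYND8 (log2 fold change 1.55 ± 0.16, edgeR adjusted p = 0.000562), and CYP4F3 at 4.85 and 2.96 CPM in shLuciferase and 20.1 and 11.9 CPM in shZMYND8 (log2 fold change 2.03 ± 0.30, edgeR adjusted p = 0.00238), and since these genes are near copies, reads could be split between them.

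The basement membrane collagen genes COL4A1 and COL4A2, chosen for display after their values were seen, lie head to head on chromosome 13 and share 1 promoter. COL4A1 stood at 55.5 and 74.5 CPM in shLuciferase and 212 and 250.3 CPM in shZMYND8 (log2 fold change 1.83 ± 0.17, edgeR adjusted p = 0.00045), and COL4A2 at 75.02 and 107 CPM in shLuciferase and 191 and 214 CPM in shZMYND8 (log2 fold change 1.15 ± 0.17, edgeR adjusted p = 0.00227). Both rose above both controls while shJARID1D did not, at 49.8 and 60.3 CPM and 72.6 and 81.9 CPM. The 126 bases between the 2 starts in the RefSeq table (GRCh38.p14, chr13:110307158-110307283, plus strand, read toward COL4A2) are shown because both genes that rose face away from them. Capitals mark 1 CCAAT box and 1 GC box of SP1 (GGGCGG), and no TATA box (TATAAA) was found on either strand.
COL4A1-COL4A2: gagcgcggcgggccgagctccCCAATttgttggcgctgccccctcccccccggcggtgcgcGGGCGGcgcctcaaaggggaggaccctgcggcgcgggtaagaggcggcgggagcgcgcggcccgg

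Promoters were then searched for 11 short motifs on both strands in the RefSeq windows (GRCh38.p14) from 250 bases before to 50 after the start. Windows were found for 11413 of the 15867 tested genes, with the first start listed per gene. The TATA box was in 5.87% of all windows, 7.18% of higher and 7.49% of lower genes. In the same order the GC box had 69.5%, 66.5% and 70.6%, and the MYC E box (CACGTG) 10.0%, 8.83% and 8.61%. The TEAD site (GGAATG) had 10.7%, 12.1% and 10.6%, and the cyclic AMP response element (TGACGTCA) 3.14%, 1.94% and 3.13%. The grainyhead site (AACCGGTT) had 0.14%, 0% and 0.224%. The cell cycle homology region (TTTGAA) was in 9.58% of all these windows, in 8.54% of those of higher genes and in 17.6% of those of lower genes, and in 12.9% of lower genes outside the G2/M list. The CCAAT box was in 36.3% of all windows, 31.8% of higher and 41.2% of lower genes, and in 38.4% of lower genes outside the G2/M list. Its share in lower genes was 33.9% without shZMYND8 replicate 1, under that of all windows, and up to 43.1% without another library. The kappa B site (GGANTTTCC) was in 1.67% of all windows, 3.39% of higher and 0.783% (7 of 894) of lower genes. Outside the interferon list it was in 2.76% (26 of 943) of higher genes. The AP-1 site (TGANTCA) was in 4.54% of all windows, 7.18% of higher and 3.69% of lower genes, and in higher genes its share ran from 6.85% to 9.11% without 1 library. The interferon-stimulated response element (GAAANNGAA) was in 6.36% of all windows and 7.53% of higher genes outside the interferon list, against 53% of that list. Without any single library the share of the cell cycle homology region in lower genes ran from 14.2% to 25.5%. That of the kappa B site in higher genes ran from 3.01% to 4.77%. These ranges include the genes of the G2/M and interferon lists, and none was made for the genes outside them.

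The 3 largest rises outside the interferon list with a kappa B match, among genes of at least 5 CPM, are shown. They carry a motif that was more frequent among higher genes, and the match is in capitals in a stretch of 30 bases. NFKBIZ, an inhibitor-like regulator of NF-kappa B, stood at 16.99 and 11.99 CPM in shLuciferase and 42.97 and 32.9 CPM in shZMYND8 (log2 fold change 1.39 ± 0.19, edgeR adjusted p = 0.00159), and the values of IL6 and NR4A3 are given above. The stretches lie at chr7:22727117-22727146, chr9:99821642-99821671 and chr3:101827757-101827786, all on the plus strand. A match describes these letters and not a bound site.
IL6: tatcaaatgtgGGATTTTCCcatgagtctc
NR4A3: ggccgtgcggcGGAGTTTCCattgtgcggc
NFKBIZ: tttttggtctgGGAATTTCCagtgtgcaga

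The corresponding display for the cell cycle homology region takes the 3 largest falls outside the G2/M list, among genes of at least 5 CPM, that hold it. SCEL, a protein of the cornified envelope, stood at 9.24 and 7.63 CPM in shLuciferase and 2.74 and 2.53 CPM in shZMYND8 (log2 fold change -1.67 ± 0.20, edgeR adjusted p = 0.000889), and MAD2L1, a spindle checkpoint gene that the G2/M list did not include, at 58.4 and 59.4 CPM in shLuciferase and 23.7 and 26.5 CPM in shZMYND8 (log2 fold change -1.23 ± 0.14, edgeR adjusted p = 0.000729). HIST1H3G is described above. Their stretches lie at chr6:26271559-26271588 (minus strand), chr13:77535545-77535574 (plus strand) and chr4:120066807-120066836 (minus strand), and the capitals mark the motif on either strand.
HIST1H3G: gagaagagaggaTTCAAAaatgaagtgatt
SCEL: ttaaacaaagaaTTCAAAcaaagacagtag
MAD2L1: tgcgtcgttactTTTGAAacgcttggcggg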

How the data were processed

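The authors deposited estimated counts per gene (expected counts of fragments) for 6 RNA-seq libraries, per the file headers in the layout of Cuffdiff. The submitters' processing notes name Bowtie 1.1.2, TopHat2 2.0.12, Cuffdiff, edgeR 3.12.0 and hg19, without roles. Annotation, strandedness and RNA selection: not given in the sources used here. Columns named Rac7 were taken as shZMYND8, since RACK7 is another name of ZMYND8 in an antibody label of the series. The deposited status marks served to drop 60 genes marked HIDATA (listed at 0) in any library, and 18 other columns of per-sample values were not used. In the 4 libraries compared, 84.0% to 84.9% of the values under 1000 fragments were whole multiples (within 0.05) of 1 step per library of 0.882 to 1.05, and the remaining values were not. What set the step is not stated. The deposited counts were rounded to whole numbers. Genes passing edgeR's expression filter (15867) were fitted with all 6 libraries by edgeR 4.0.16's quasi-likelihood test (R 4.3.3, limma 3.58.1, TMM factors), with Benjamini-Hochberg adjustment over all tested genes and a threshold of 0.05. Log2 fold changes are given ± their standard error, and CPM are per library. Python 3.11.15, pandas 2.3.3, numpy 2.4.6 and matplotlib 3.10.9 made the summaries and plots. The fit was also run on counts simulated with the same relative spread for all genes and libraries. Such counts lack the unequal spread of these groups, so the run could not show how the fit handles it. Of 28443 names, 20894 matched a current RefSeq symbol, 1858 a synonym and 5691 neither. Chromosomes and gene order come from RefSeq (GRCh38.p14).

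The named genes are ZMYND8 and KDM5D, the 12 largest rises and falls among genes of at least 5 CPM outside the interferon and G2/M lists whose compared libraries do not overlap, and up to 3 rising and 3 falling members of each list by adjusted p. Among list members, those that kept their call without any single library were preferred as examples, after their values were seen. The comparison and all gene lists were chosen with earlier results of these data known. Alternatives covered scaling, filters, DESeq2 1.42.0, limma voom, the libraries in the fit, a replicate block, each library left out, and the thresholds. Some marker genes and 1 gene list are not reported here.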

Additional observations from a re-analysis of the deposited data

How the results depend on the processing

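Over the alternative fits, no named gene that passed the test changed its direction, and 97 of 193 named genes stayed on their side of the threshold under all 18. KDM5D, which did not pass, had a log2 fold change of -0.05 with all libraries and 0.0053 without shZMYND8 replicate 1. With a threshold of 0.01, 1002 genes changed, 615 higher and 387 lower, and with a log2 fold change of at least 1 the counts were 803, 595 and 208. Without each library in turn, the number of changed genes ran from 642 to 3222, of higher genes from 419 to 1605 and of lower genes from 223 to 1617. The lowest values (642, 419 and 223) came without shZMYND8 replicate 1, and without replicate 2 the counts were 1005, 645 and 360. Leaving out chromosome 18, an alternative chosen after seeing the data, gave 2499, 1403 and 1096.

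The replicate block gave 3699 changed genes, 1921 higher and 1778 lower. The labels share replicate numbers across groups, but only 2 numbers exist and nothing says that a number marks a shared culture or day. The correlations of same-numbered deviations were 0.0925 (shLuciferase and shZMYND8), 0.17 (shLuciferase and shJARID1D) and 0.0969 (shZMYND8 and shJARID1D), so the numbers were not taken to pair the libraries. With 2 libraries per group, a gene without a fragment could lie at up to 0.126 CPM. Smaller levels could therefore be missed, although some were counted, such as KLK3 at 0.0423 CPM in shZMYND8 replicate 2.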
